A study of Mus musculus with 12 samples.

Results

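The mitochondrial ribosome and the machinery that imports proteins into mitochondria were examined in mouse heart as 78 genes read by 95 probe sets, out of 8251 genes with 10833 probe sets that carry 1 gene symbol on the array. A gene was a member when its symbol begins with Mrpl or Mrps (proteins of the large and small mitochondrial ribosomal subunits, 61 genes) or with Timm or Tomm (translocases of the inner and outer mitochondrial membrane, 17 genes). Membership went by the symbol alone, while this set of genes, and Mrpl45 and Tomm34 within it, were singled out with earlier results of these data known. Of the 95 probe sets, 84 passed a filter on dim signals and were tested: 67 of ribosomal proteins (59 genes) and 17 of import genes (15 genes). Mrpl14, Mrpl49, Timm8a2 and Timm9 had no tested probe set, and 5 further genes kept another probe set that was tested. Another 7 probe sets carry a member's symbol together with that of another gene and were left out.

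The samples were cardiac muscle of male NMRI mice, an outbred stock, given an age of 10 to 15 weeks for all groups alike. The groups were diabetic trained, diabetic sedentary, healthy trained and healthy sedentary, with 3 arrays each, at weeks 1, 3 and 5. Diabetic mice had 1 injection of streptozotocin (STZ, 180 mg/kg), a toxin of the insulin-producing beta cells and a model of type 1 diabetes; healthy mice had buffer. Trained mice ran on a treadmill 1 h per day, 5 days per week, at 21 m/min and an incline of 2.5 degrees, and were killed 24 h after the last bout. Each array holds 1 pool of RNA from 5 mice, so p-values do not measure the spread between animals. With condition and week both in the model, p-values for a condition rest on how its differences varied between weeks. Those for a week rest on how its change varied between conditions. In whole heart, fewer cells of a type and less RNA per cell cannot be told apart.

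Mitochondria keep a small genome that encodes a few subunits of the respiratory chain, and a ribosome of their own, built from mitochondrial rRNA and imported proteins, translates them. All ribosomal proteins of that particle and nearly all other mitochondrial proteins are made in the cytosol and cross the outer membrane through the TOM complex (receptors such as Tomm20 and Tomm70a, the channel Tomm40). The TIM23 and TIM22 complexes then carry them through or into the inner membrane, and small Timm proteins escort hydrophobic precursors across the space between the membranes. The heart beats on mitochondrial ATP, and mutations in several of these genes, among them human MRPL44 and MRPS22, cause cardiomyopathy.

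The tissue label held against its markers by summed signal. The 14 measured cardiomyocyte markers had the highest sum of all marker lists, 31100 to 43700 per array, followed by 10 fibroblast markers at 3030 to 3900. None of the 14 was at or under the floor of 4.1 signal units on all arrays, which also held for every other list. Median signals were 16.55 to 20.4 on 11 arrays and 25.4 for diabetic trained hearts at week 3. The array of those hearts was the only one with a comment in its deposited experiment file, recorded here as relabelled. Per those files it also had a chip lot and a run day of its own, where run day means the day of the scan. Its mean correlation with the other arrays was 0.785, against 0.900 to 0.931 for the others. Results that rest on it are given with and without it. Week fell together with run day on the other arrays, and week 5 had a chip lot of its own, so week 5 and that lot cannot be told apart. The fluidics module used to stain the arrays differed by condition, and the 2 cannot be told apart either. The lung marker sum was 241 on the healthy sedentary array of week 1 and 26.9 to 105 on the others, skeletal muscle markers ran from 404 to 1390, and the lymphocyte sum was 169 on the diabetic trained array of week 3 and 38.8 to 71.2 elsewhere.

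Most tested member probe sets had signals above the background of the array, while the 11 member probe sets under the filter are not counted here. The highest signal of 19 control probe sets for bacterial and yeast sequences was 13.8, while geometric means of the 84 member probe sets lay between 14.3 and 659 with a median of 92.3. Of the 84, 9 had at least 1 array at or under 13.8, and the lowest geometric means were close to that level. Over the 12 arrays 32 of the 84 spanned less than 2-fold, and 51 did so without the diabetic trained array of week 3. The probe sets of highest signal were Mrpl18 93787_f_at, Mrps21 and Mrpl51 among the ribosomal proteins and Timm23, Tomm7 and Timm13 among the import genes; probe sets differ in how well they hybridise, so this is no order of mRNA levels. Timm23, which forms the channel of the inner membrane translocase for proteins with a presequence, read 543.3, 401.5 and 690.3 in diabetic trained hearts at weeks 1, 3 and 5, 535.3, 615.5 and 567.2 in diabetic sedentary hearts, 500.1, 633.8 and 735.0 in healthy trained hearts and 519.4, 495.8 and 612.5 in healthy sedentary hearts. It was lowest on the diabetic trained array of week 3 and varied by less than 2-fold over the rest. Mrps21, a small subunit protein with a bacterial counterpart, read 361.9, 208.0 and 378.0 in diabetic trained hearts at weeks 1, 3 and 5, 381.3, 370.8 and 371.6 in diabetic sedentary hearts, 399.8, 381.8 and 414.2 in healthy trained hearts and 333.3, 328.5 and 359.7 in healthy sedentary hearts. Apart from the 208.0 of the diabetic trained array of week 3, its signals stayed between 328.5 and 414.2.

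**Figure D1:**
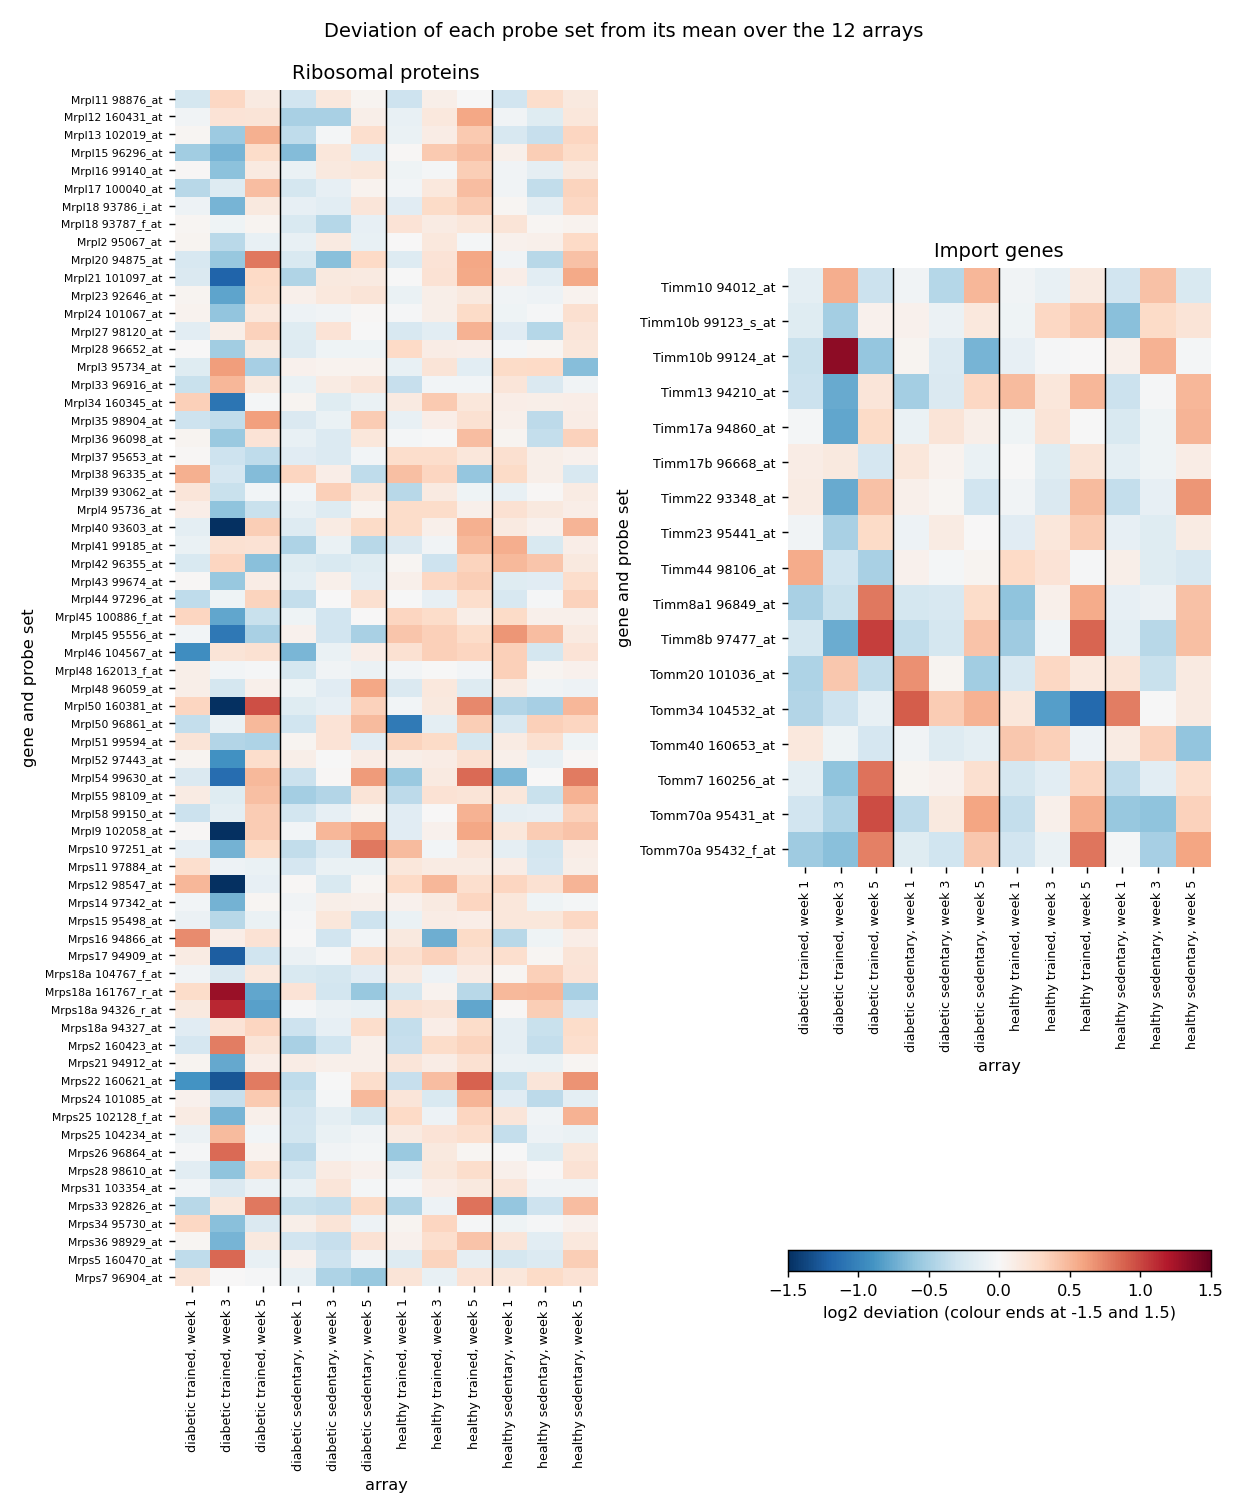
Heat map of the 84 tested probe sets (rows, 67 of ribosomal proteins and 17 of import genes) on the 12 arrays (columns, grouped by condition with weeks in order); colour is the log2 deviation from each row's mean. The diabetic trained column of week 3 is dark blue in many rows, and the week 5 columns of every condition have more rows above their mean (red) than below.

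The diabetic trained array of week 3 gave low signals for many members. It gave the lowest of the 12 signals for 40 of 84 member probe sets (47.6%, against 28.2% of all tested) and the highest for 11 (13.1%, against 28.4% of all tested). Its median deviation from the mean of the other 11 arrays was -0.41 (log2) for ribosomal proteins and -0.50 for import genes, against -0.049 for all tested probe sets. Subunits of the respiratory chain (75 probe sets) stood at -0.52 and cytoplasmic ribosomal proteins (35 probe sets) at -0.46 on that array. The deviation went with signal over all tested probe sets, from 0.58 in the dimmest quartile through 0.19 and -0.13 to -0.44 in the brightest. In the same order the member medians were -0.045, -0.16, -0.26 and -0.62 (6, 14, 24 and 40 probe sets), each below that of all tested. The part of signal level in the members' deviation was not tested. The most extreme members, chosen after their values were seen, were Mrpl9 at 4.3 (29.1 to 50.5 on the other 11 arrays), Mrps12 at 12.0 (50.4 to 84.5) and Mrpl40 at 12.4 (43.3 to 71.7). The 11 probe sets above the range of the other arrays were led by Timm10b 99124_at at 36.1 (8.8 to 20.6 elsewhere) and Mrps18a 161767_r_at at 340.5 (80.9 to 196.5).

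**Figure D2:**
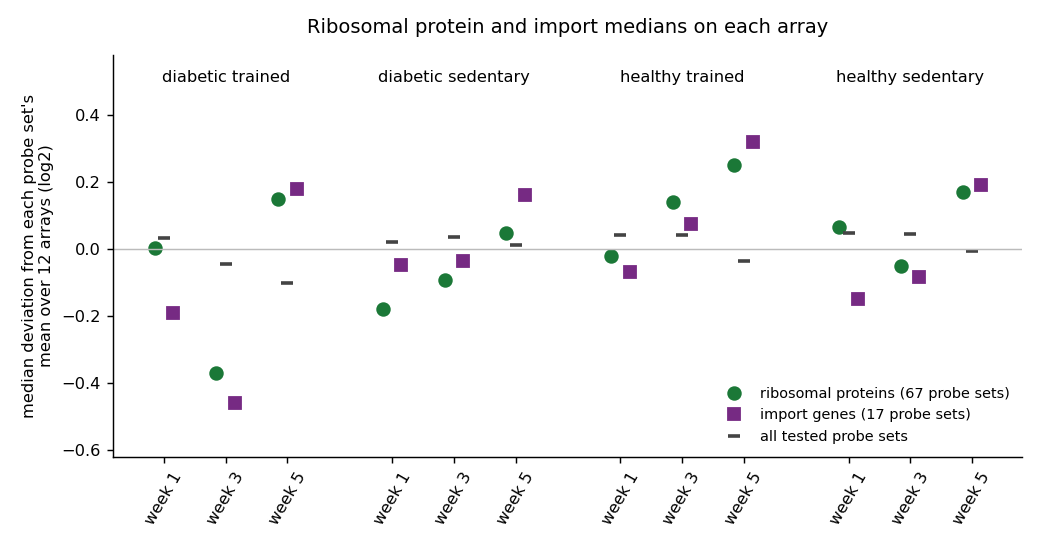
Median log2 deviation from each probe set's mean over 12 arrays, for ribosomal proteins (circles), import genes (squares) and all tested probe sets (dashes), on each array by condition and week. Both classes lie at -0.37 and -0.46 on the diabetic trained array of week 3 and above 0 on all 4 arrays of week 5.

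Diabetes over both training states changed 1 member of 84 past the threshold (limma, Benjamini-Hochberg adjusted p under 0.05 over all 7453 tested probe sets), Mrpl45, which was lower in diabetic hearts. The share called over all tested probe sets was 0.765% in either direction and 0.389% for lower ones. Ribosomal proteins had a median difference of -0.15 (log2, diabetic minus healthy) and import genes of -0.072, against -0.017 for all tested probe sets, -0.087 for respiratory chain subunits and 0.06 for cytoplasmic ribosomal proteins. Of the 84 members 63 (75%) lay below 0, against 52.2% of all tested. At an unadjusted p under 0.05 were 13 members (15.5%), all of them lower in diabetic hearts, against 11.8% of all tested probe sets, of which 362 were higher and 516 lower. Without the diabetic trained array of week 3 the medians were -0.11 for ribosomal proteins and -0.016 for import genes, 56 members lay below 0, and Mrpl45 remained the 1 call, where 2.05% of all tested probe sets were called.

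Mrpl45, a large subunit protein at the exit of the nascent chain that holds the ribosome at the inner membrane, read 95.1, 46.7 and 69.9 in diabetic trained hearts at weeks 1, 3 and 5, 102.9, 80.3 and 70.2 in diabetic sedentary hearts, 130.7, 125.5 and 118.8 in healthy trained hearts and 154.7, 135.4 and 108.1 in healthy sedentary hearts with probe set 95556_at. All 6 diabetic arrays (46.7 to 102.9) lay below all 6 healthy ones (108.1 to 154.7). The difference was -0.77 (log2, SE 0.14, limma adjusted p = 0.0428), or 1.7-fold lower in diabetic hearts, with all 6 week-matched differences below 0 (-1.43 to -0.46). Without the diabetic trained array of week 3 it was -0.64 (adjusted p = 0.0114). In sedentary hearts alone the difference was -0.65 (SE 0.20, adjusted p = 0.364), and in trained hearts alone -0.88 (SE 0.20, adjusted p = 0.255), both short of the threshold. With that array left out the difference in sedentary hearts was the same -0.65, now with an adjusted p of 0.0475, the 1 member called there, where 0.805% of all tested probe sets were called. Without week as a block the difference was -0.77 (adjusted p = 0.172). The call held in 7 of 25 alternative fits, which gave differences of -0.89 to -0.61 and adjusted p-values of 0.00759 to 0.351, and in 2 of the 12 fits that each left out 1 array, those without the diabetic trained array of week 1 or of week 3.

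The second probe set of Mrpl45, 100886_f_at, read 104.1, 48.5 and 65.9 in diabetic trained hearts at weeks 1, 3 and 5, 79.6, 67.8 and 83.1 in diabetic sedentary hearts, 103.7, 100.8 and 87.9 in healthy trained hearts and 101.1, 87.7 and 87.4 in healthy sedentary hearts. Here the groups overlapped: the diabetic trained array of week 1 (104.1) was the highest of all 12. The difference was -0.38 (SE 0.15, adjusted p = 0.344), with 5 of 6 week-matched differences below 0, and -0.26 without the diabetic trained array of week 3. The suffix _f marks a probe set whose probes can also match related sequences.

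The region before the start of Mrpl45 is shown because it holds a motif of nuclear respiratory factor 1 (NRF1), a regulator of nuclear genes for mitochondrial proteins, at 2 places. The sequence is the 250 bases upstream of the gene's start in RefSeq (GRCm38.p6), chr11:97315466-97315715 (+ strand), in the direction of the gene, with matches to that motif (GCGCA, any base, then GCGC) in capitals, beginning 120 and 38 bases before the start.
Mrpl45: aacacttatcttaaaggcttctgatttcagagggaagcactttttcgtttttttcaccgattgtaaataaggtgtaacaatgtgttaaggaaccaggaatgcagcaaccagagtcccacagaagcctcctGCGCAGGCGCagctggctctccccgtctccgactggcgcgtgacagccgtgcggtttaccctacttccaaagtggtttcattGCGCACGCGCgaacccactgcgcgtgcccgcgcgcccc
Such a match is a description of the letters and shows no binding. Of the 70 member genes found in the RefSeq promoter table, 8 (11.4%) held this motif on either strand in this window, against 5.30% of protein-coding genes. The ETS-family motif CCGGAAG, recognised by factors such as GABPA, was held by 19 of the 70 (27.1%), against 9.12% of protein-coding genes.

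Next after Mrpl45 by p-value among members with a negative difference were 2 further large subunit proteins and a small Timm protein, none past the threshold. Mrpl37, a protein that bacterial ribosomes lack, read 75.1, 85.5 and 98.8 in diabetic hearts (lowest, median and highest of 6 arrays), against 102.2, 112.0 and 117.7 in healthy hearts. Its groups did not overlap either, which held for 2 of the 84 members (2.38%) and for 1.01% of all tested probe sets; the difference was -0.36 (SE 0.11, adjusted p = 0.178). Mrpl15, which has a bacterial counterpart, read 80.0, 70.7 and 139.1 in diabetic trained hearts at weeks 1, 3 and 5, 73.1, 129.1 and 103.4 in diabetic sedentary hearts, 116.2, 151.5 and 159.1 in healthy trained hearts and 121.2, 148.4 and 139.2 in healthy sedentary hearts. The 2 groups overlapped at week 5 of the diabetic trained hearts and week 3 of the diabetic sedentary hearts, and the difference was -0.53 (SE 0.16, adjusted p = 0.173). Timm13, which pairs with Timm8a1 as a chaperone between the membranes, read 216.0, 160.5 and 306.9 in diabetic trained hearts at weeks 1, 3 and 5, 189.7, 233.4 and 335.4 in diabetic sedentary hearts, 375.8, 304.0 and 380.2 in healthy trained hearts and 216.5, 267.7 and 381.8 in healthy sedentary hearts. It was lower in diabetic than in healthy hearts of the same training state at every week, with a difference of -0.43 (SE 0.13, adjusted p = 0.194), although over all weeks the groups overlapped. Mrpl4, Mrps25 102128_f_at and Mrps12 were named after their values were seen. Mrpl4, which has a bacterial counterpart, had -0.37 (adjusted p = 0.207) and was lower in diabetic hearts in 6 of 6 pairs. The same held for Mrpl18 93787_f_at with -0.26 and Mrps25 102128_f_at with -0.40. Mrps12, at -0.70, read 12.0 on the diabetic trained array of week 3 and had -0.30 without it. Mrpl15, Timm13, Mrpl4 and Mrps25 102128_f_at also had their lowest signal there, and their differences are given only with that array.

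No member with a positive difference passed or came near the threshold. Tomm34, a cytosolic partner of Hsp70 and Hsp90 that handles precursors before import, had 0.31 (adjusted p = 0.58) and was higher in diabetic hearts in 5 of 6 week-matched pairs. Mrps16, a conserved small subunit protein, read 18.5, 23.2 and 36.8 in diabetic hearts (lowest, median and highest of 6 arrays), against 13.5, 22.9 and 27.4 in healthy hearts. Its difference was 0.23 (SE 0.21, adjusted p = 0.729), with 3 of 6 pairs higher. Tomm70a 95431_at (outer membrane receptor for carrier precursors) had 0.19 and Mrpl33 (large subunit) 0.17, with adjusted p-values of 0.751 and 0.716. The second Tomm70a probe set, 95432_f_at, had the opposite sign, -0.16.

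**Figure D3:**
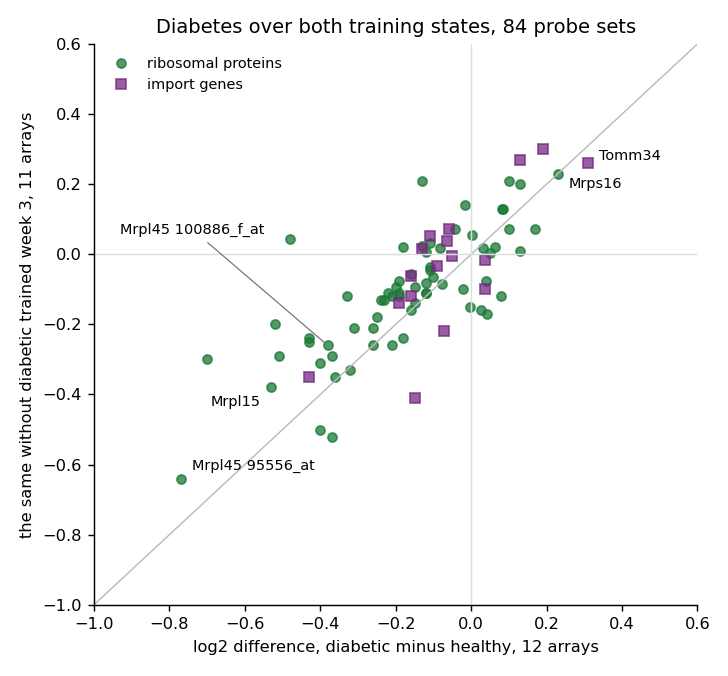
Log2 difference, diabetic minus healthy over both training states, of the 84 member probe sets (circles, ribosomal proteins; squares, import genes) with all 12 arrays (x axis) and without the diabetic trained array of week 3 (y axis); the diagonal marks equal values. Most points lie left of 0 in both, and Mrpl45 95556_at, at -0.77 and -0.64, lies farthest down on both axes.

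Among sedentary hearts no member passed the threshold for diabetes (0 of 84, against 0.0537% of all tested probe sets called). At an unadjusted p under 0.05 were 5 members (5.95%), against 546 of all tested (7.33%). The medians were -0.10 for ribosomal proteins and 0.031 for import genes, against -0.0068 for all tested. Mrps7, a conserved protein of the small subunit head, read 69.1, 60.3 and 59.3 in diabetic trained hearts at weeks 1, 3 and 5, 55.7, 43.8 and 40.6 in diabetic sedentary hearts, 68.8, 55.9 and 69.8 in healthy trained hearts and 67.7, 73.6 and 69.8 in healthy sedentary hearts. The diabetic sedentary arrays (40.6 to 55.7) were the lowest of each week, and their difference to healthy sedentary hearts was -0.60 (SE 0.18, adjusted p = 0.32). Tomm70a 95431_at (0.39) and Mrps24 (0.28, small subunit) stood at the other end, with adjusted p-values of 0.854 and 0.851. By week the ribosomal median difference between diabetic sedentary and healthy sedentary hearts was -0.19, 0.0046 and -0.14 at weeks 1, 3 and 5, and the import median 0.13, 0.15 and -0.11.

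Among trained hearts no member passed for diabetes either (0 of 84, against 0.0268% of all tested called). At an unadjusted p under 0.05 were 12 members (14.3%), all lower, against 782 of all tested (10.5%, 286 higher and 496 lower). The ribosomal median was -0.21 and the import median -0.13, and -0.092 and -0.10 without the diabetic trained array of week 3. By week the ribosomal median was 0.0056, -0.55 and -0.14 and the import median 0.041, -0.50 and -0.091, so both were farthest from 0 at week 3. Timm13 had the smallest p after Mrpl45, with -0.68 (SE 0.19, adjusted p = 0.36) and -0.51 without that array. Mrps18a 161767_r_at (0.47) and Mrps26 (0.42) led the positive side, and without that array they had 0.042 and 0.18. Mrps26 read 79.5 on that array and 30.1 to 49.7 on the other 11.

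Whether the diabetes difference depended on training was tested as an interaction, and no member passed (0 of 84, with 1 at an unadjusted p under 0.05, against 0% of all tested called and 321 of 7453 at an unadjusted p under 0.05). That member was Mrps7, with 0.56 (SE 0.25, adjusted p = 0.859): its difference was -0.60 in sedentary and -0.04 in trained hearts. Mrps18a 161767_r_at had 0.85, Mrps21 -0.52 and Timm13 -0.48, each with an adjusted p of 0.859. These became 0.42, -0.27 and -0.32 without the diabetic trained array of week 3, and the ribosomal median moved from -0.14 with that array to 0.002 without it.

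Marker sums of other cell types and of the muscle itself were compared between diabetic and healthy hearts. The summed signal of 6 adipocyte markers (Adipoq, Fabp4, Retn, Lipe, Cidec and Car3) was 184 to 242 on the 6 diabetic arrays and 116 to 167 on the 6 healthy arrays. None was at the floor throughout. Of the 4 tested 0 passed the threshold and the median difference was 0.62, with Car3 at -1.15. Sums of all other lists overlapped between the groups, among them endothelial (1220 to 1680 diabetic, 1300 to 1810 healthy) and fibroblast markers (3030 to 3900 and 3260 to 3850). Cardiomyocyte markers summed to 31100 to 43500 in diabetic and 34600 to 43700 in healthy hearts. Their median difference for diabetes was -0.14, where ribosomal proteins had -0.15. It was -0.26 in sedentary and -0.088 in trained hearts, where ribosomal proteins had -0.10 and -0.21. Of those 14 genes 1 passed the threshold, Ckm (muscle creatine kinase, -0.53, limma adjusted p = 0.0461), which was lower in diabetic hearts. Positive differences were those of Nppa (0.35, adjusted p = 0.296) and Tnnt2 (0.032). The part of any of these lists in the differences above was not tested.

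Training over both disease states called no member (0 of 84, with 4 at an unadjusted p under 0.05, against 0% of all tested called and 257 of 7453 at an unadjusted p under 0.05). The median difference was -0.011 (log2, trained minus sedentary) for ribosomal proteins and 0.0031 for import genes, against -0.023 for all tested probe sets. Without the diabetic trained array of week 3 both medians were above 0, at 0.081 and 0.10. In that fit 61 of 84 members (72.6%) lay above 0, against 45.7% of all tested probe sets. The shift was not particular to the members. Respiratory chain subunits had a median of 0.07 with 74.7% above 0, and cytoplasmic ribosomal proteins 0.067 with 71.4% above 0. No member had trained and sedentary arrays that did not overlap, and 0.121% of all tested probe sets did.

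Tomm34 had the smallest p for training of all members. It read 34.9, 38.3 and 44.0 in diabetic trained hearts at weeks 1, 3 and 5, 88.9, 61.6 and 68.2 in diabetic sedentary hearts, 53.3, 26.7 and 21.1 in healthy trained hearts and 80.5, 47.1 and 52.3 in healthy sedentary hearts. At every week and in both disease states the trained array was below the sedentary one, in 6 of 6 pairs with differences of -1.35 to -0.59, although healthy sedentary hearts of weeks 3 and 5 (47.1 and 52.3) lay just below the highest trained array (53.3). The fitted difference was -0.90 (SE 0.19, unadjusted p = 0.000513), or 1.86-fold lower in trained hearts, and its adjusted p over all tested probe sets was 0.998, far from the threshold. It was -0.89 in diabetic hearts and -0.91 in healthy hearts (SE 0.27 each). Without the diabetic trained array of week 3 the pooled difference was -0.96 (adjusted p = 0.557). The other 16 import probe sets had training differences between -0.13 and 0.18.

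The 250 bases before the start of Tomm34 in RefSeq (GRCm38.p6), chr2:164071170-164071419 (- strand), hold 1 match to CCGGAAG, on the opposite strand, in capitals and beginning 39 bases before the start. They are shown as the promoter of the member with the smallest training p, beside the ribosomal one above, which has matches to the NRF1 motif and none to this one.
Tomm34: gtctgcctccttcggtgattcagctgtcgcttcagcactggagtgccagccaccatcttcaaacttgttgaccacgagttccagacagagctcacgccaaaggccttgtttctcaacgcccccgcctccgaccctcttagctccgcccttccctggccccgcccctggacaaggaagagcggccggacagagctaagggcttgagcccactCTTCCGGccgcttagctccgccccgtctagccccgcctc

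**Figure D4:**
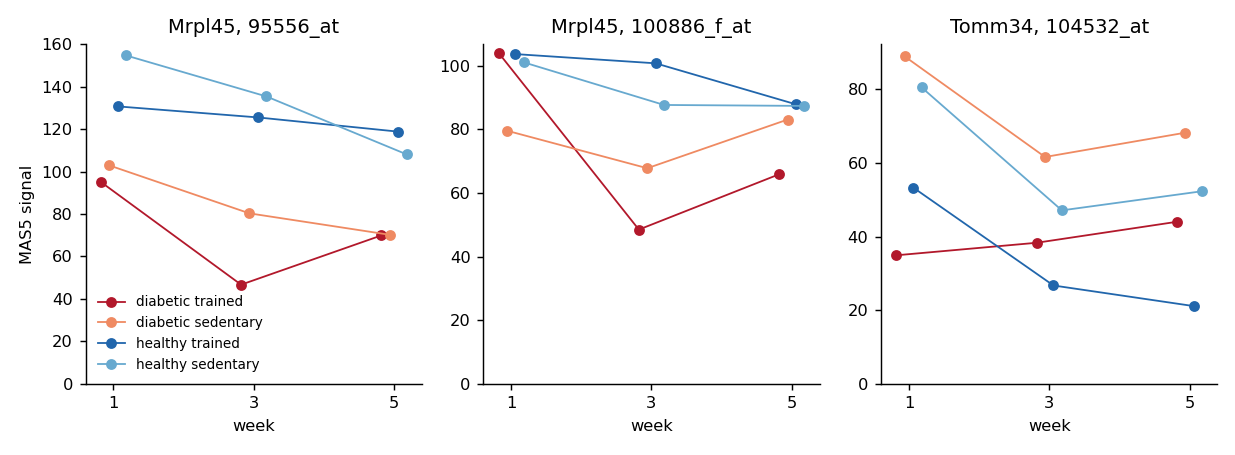
MAS5 signal (y axis, from 0) against week for the 2 probe sets of Mrpl45 and the 1 of Tomm34, with 1 point per array and a line per condition. For Mrpl45 95556_at both diabetic lines lie under both healthy lines, and for Tomm34 each trained line lies under the sedentary line of the same disease state.

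The other 3 members with an unadjusted p under 0.05 for training were ribosomal proteins with positive differences. Mrpl12, which forms the stalk of the large subunit, read 251.7, 301.4 and 300.1 in diabetic trained hearts at weeks 1, 3 and 5, 186.6, 186.6 and 278.0 in diabetic sedentary hearts, 242.7, 291.9 and 391.5 in healthy trained hearts and 252.2, 230.2 and 295.4 in healthy sedentary hearts. It was higher in trained hearts in 5 of 6 pairs, with 0.32 (SE 0.11, adjusted p = 0.998), and in diabetic hearts alone with 0.41. Mrps25, a protein particular to mitochondrial small subunits, read 47.7, 57.0 and 70.4 in trained hearts (lowest, median and highest of 6 arrays), against 39.5, 47.2 and 48.9 in sedentary hearts with probe set 104234_at. The 70.4 was the diabetic trained array of week 3, above the other 11 arrays (39.5 to 60.3), and the difference is given only with it. The trained array was the higher in 6 of 6 pairs, once by only 0.0029. The difference of Mrps25 104234_at was 0.32 (SE 0.13, adjusted p = 0.998), while its second probe set, 102128_f_at, had 0.017. Mrps33 had 0.28, with 5 of 6 pairs higher.

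On the negative side Mrpl9 had -0.69 (SE 0.41), but its 4.3 on the diabetic trained array of week 3 set that value, and without this array the difference was -0.16. Mrpl50 96861_at had -0.27, with 4 of 6 pairs lower, and its second probe set 160381_at had 0.13. In healthy hearts alone no member passed (0 of 84, 1 at an unadjusted p under 0.05, 0% of all tested called, 152 of 7453 unadjusted); the medians were 0.071 and 0.075, and Mrps24 (0.39) and Mrps25 104234_at (0.38) were higher at each of the 3 weeks. In diabetic hearts alone no member passed (0 of 84, 3 unadjusted, 0% of all tested called, 533 of 7453 unadjusted). There the ribosomal and import medians were -0.071 and -0.092 with all arrays and 0.056 and 0.0081 without the diabetic trained array of week 3, a change of direction in both.

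Time gave the widest differences among the members. At week 5 against week 1, 17 of 84 probe sets of 16 genes passed the threshold (20.2%), 16 of them higher at week 5 and 1 lower, where 15.4% of all tested probe sets passed, 8.47% higher and 6.90% lower. Of the ribosomal probe sets 10 of 67 rose and 1 fell, and of the import probe sets 6 of 17 rose. The median difference was 0.20 for ribosomal proteins and 0.33 for import genes, against -0.10 for all tested probe sets, 0.11 for respiratory chain subunits (10 higher and 2 lower of 75) and 0.13 for cytoplasmic ribosomal proteins (1 higher of 35). Centring each array on its median moved the median of all tested probe sets to 0.076 and those of the members to 0.38 and 0.50, with 678 of all tested probe sets higher and 136 lower, in place of 631 higher and 514 lower; of the members 15 were then higher and 1 lower. Without the diabetic trained array of week 3, 33 of 84 passed (27 higher, 6 lower; 39.3%), against 32.3% of all tested.

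The arrays of week 5 also differed in a measure of the RNA. The 18S rRNA control probe set read 80.9 to 439.2 at week 1, 112.5 to 1140.9 at week 3 and 1395.3 to 3809.3 at week 5. The ratio of 3′ to 5′ signal of the actin control was 1.70 to 2.46, 1.75 to 1.99 and 2.11 to 2.52 at those weeks, and that of GAPDH 1.03 to 1.25 over all arrays. Of these, only the 18S signal set all week 5 arrays apart, while both ratios overlapped between weeks 5 and 1. Together with the chip lot and run day of week 5, the 18S signal moves with every week 5 result given here. The part of each was not tested.

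Among the import genes, the outer membrane receptor Tomm70a rose with both of its probe sets. Probe set 95432_f_at read 78.2, 73.1 and 190.6 in diabetic trained hearts at weeks 1, 3 and 5, 99.5, 92.0 and 149.4 in diabetic sedentary hearts, 92.3, 105.9 and 197.1 in healthy trained hearts and 111.2, 80.2 and 169.9 in healthy sedentary hearts. The week 5 arrays (149.4 to 197.1) all lay above those of week 1 (78.2 to 111.2), and the difference was 0.89 (SE 0.16, adjusted p = 0.00711). Probe set 95431_at read 20.0, 17.7 and 48.1 in diabetic trained hearts at weeks 1, 3 and 5, 18.5, 26.9 and 36.6 in diabetic sedentary hearts, 19.0, 25.7 and 35.6 in healthy trained hearts and 16.5, 16.0 and 30.9 in healthy sedentary hearts. Here too no week 5 array overlapped week 1, with 1.02 (SE 0.23, adjusted p = 0.0142). Timm8b, a small chaperone between the membranes, read 158.4, 113.2 and 391.2 in diabetic trained hearts at weeks 1, 3 and 5, 147.1, 159.0 and 257.0 in diabetic sedentary hearts, 131.7, 184.0 and 348.6 in healthy trained hearts and 172.1, 142.5 and 259.2 in healthy sedentary hearts. The values of weeks 1 and 3 mixed (113.2 to 184.0) and those of week 5 stood apart (257.0 to 391.2), a difference of 1.03 (SE 0.19, adjusted p = 0.00812), or 2.04-fold. Its relative Timm8a1, whose human counterpart is mutated in a deafness-dystonia syndrome, read 35.4, 39.5 and 85.9 in diabetic trained hearts at weeks 1, 3 and 5, 41.4, 42.2 and 60.1 in diabetic sedentary hearts, 32.7, 52.4 and 73.5 in healthy trained hearts and 45.9, 47.0 and 67.7 in healthy sedentary hearts. It was 0.89 higher at week 5 (SE 0.19, adjusted p = 0.0121).

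Tomm7, a small subunit of the TOM complex, read 419.4, 304.5 and 818.6 in diabetic trained hearts at weeks 1, 3 and 5, 477.0, 484.0 and 548.2 in diabetic sedentary hearts, 387.3, 414.4 and 578.9 in healthy trained hearts and 355.7, 416.5 and 551.2 in healthy sedentary hearts. The diabetic trained array of week 5 (818.6) stood above the other week 5 arrays (548.2 to 578.9), and the difference over conditions was 0.59 (adjusted p = 0.0437). Timm13 rose by 0.54 (adjusted p = 0.0448), by as little as 0.017 in healthy trained hearts and as much as 0.82 in both sedentary groups. The channel genes did not pass: Timm23 had 0.31 (adjusted p = 0.183) and Tomm40 -0.43 (adjusted p = 0.112, like Tomm20 named after its values were seen), and the receptor Tomm20 had -0.20 (adjusted p = 0.674). At week 5 11 of 17 import probe sets lay above 0 and 6 below.

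Among the small subunit proteins, Mrps33 had the smallest p of all members. It read 80.0, 119.7 and 183.6 in diabetic trained hearts at weeks 1, 3 and 5, 84.7, 82.7 and 130.3 in diabetic sedentary hearts, 78.0, 100.6 and 186.7 in healthy trained hearts and 71.1, 85.7 and 146.4 in healthy sedentary hearts. Every week 5 array (130.3 to 186.7) lay above every week 1 array (71.1 to 84.7), and the difference was 1.03 (SE 0.14, adjusted p = 0.00232), 2.04-fold. Mrps22, a small subunit protein without a bacterial counterpart, read 9.5, 7.3 and 30.4 in diabetic trained hearts at weeks 1, 3 and 5, 13.6, 17.7 and 21.2 in diabetic sedentary hearts, 13.9, 24.5 and 32.7 in healthy trained hearts and 14.1, 20.1 and 28.2 in healthy sedentary hearts. Its week 1 signals, 9.5 to 14.1, were near the 13.8 reached by control probe sets, and its difference of 1.14 (SE 0.31, adjusted p = 0.0333) was measured from a level close to background. Mrps18a 94327_at had 0.53 (adjusted p = 0.0283); this protein, named for the small subunit, is found in the large one.

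Among the proteins with Mrpl symbols, 7 probe sets rose and 1 fell. Mrpl54 read 13.7, 7.2 and 22.3 in diabetic trained hearts at weeks 1, 3 and 5, 12.7, 16.1 and 24.7 in diabetic sedentary hearts, 10.8, 17.5 and 28.6 in healthy trained hearts and 10.0, 16.0 and 27.4 in healthy sedentary hearts. It was 1.13 higher at week 5 (SE 0.31, adjusted p = 0.0324), from week 1 signals of 10.0 to 13.7 that were within the range of the control probe sets. Mrpl50 rose by 0.91 with 96861_at (adjusted p = 0.0132), and its other probe set had 0.72 (adjusted p = 0.179). Mrpl20, which has a bacterial counterpart, read 56.7, 45.3 and 115.5 in diabetic trained hearts at weeks 1, 3 and 5, 57.1, 43.2 and 82.4 in diabetic sedentary hearts, 58.7, 77.2 and 100.4 in healthy trained hearts and 64.6, 50.1 and 90.9 in healthy sedentary hearts. The 4 week 5 arrays lay above the others of their own condition, and the difference was 0.71 (adjusted p = 0.026).

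The last 4 rose by less, at adjusted p-values of 0.0265 to 0.0463. Mrpl58, a peptidyl-tRNA hydrolase built into the ribosome, read 54.4, 61.3 and 88.3 in diabetic trained hearts at weeks 1, 3 and 5, 56.2, 62.6 and 70.1 in diabetic sedentary hearts, 60.7, 68.1 and 97.6 in healthy trained hearts and 62.1, 62.4 and 86.7 in healthy sedentary hearts, a difference of 0.55. Mrpl44, which is related to RNase III, read 36.3, 45.4 and 59.4 in diabetic trained hearts at weeks 1, 3 and 5, 36.9, 47.5 and 55.8 in diabetic sedentary hearts, 47.3, 43.4 and 57.0 in healthy trained hearts and 40.1, 46.6 and 60.1 in healthy sedentary hearts, a difference of 0.54. Mrpl13 had 0.55 and Mrpl12 0.44, with week 5 above week 1 in all 4 conditions for each of these 4 genes.

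Mrpl38 alone fell. It read 168.1, 98.0 and 74.0 in diabetic trained hearts at weeks 1, 3 and 5, 145.1, 124.5 and 89.5 in diabetic sedentary hearts, 158.5, 145.9 and 78.0 in healthy trained hearts and 141.9, 123.6 and 98.3 in healthy sedentary hearts. The signals of week 5 (74.0 to 98.3) lay below all of week 1 (141.9 to 168.1) and overlapped those of week 3 (98.0 to 145.9) at the diabetic trained array of week 3, and the difference was -0.86 (SE 0.15, adjusted p = 0.00713), 1.81-fold lower at week 5. Mrpl51, another large subunit protein, also read lower on each week 5 array than on any of week 1, with -0.41 (adjusted p = 0.0729). Both stood against the direction of most other large subunit proteins.

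**Figure D5:**
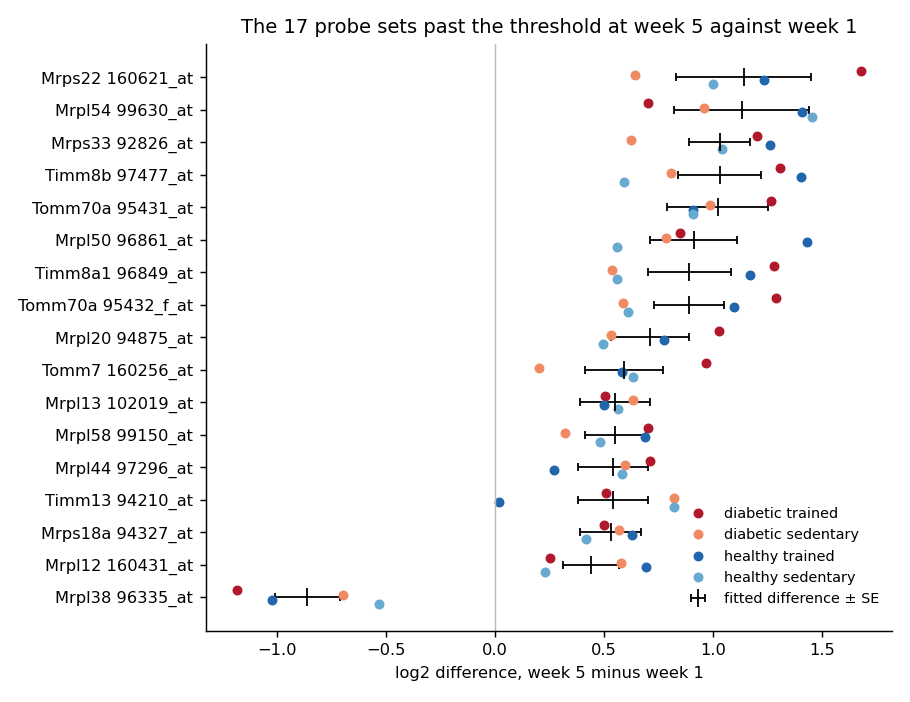
Log2 difference between week 5 and week 1 of the 17 probe sets past the threshold, with 1 coloured point for each condition (1 array against 1) and the fitted difference with its standard error in black. For 16 probe sets all 4 points lie above 0, and for Mrpl38 all 4 lie below 0.

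Not overlapping between weeks 5 and 1 were 37 of the 84 members, 31 higher at week 5 (36.9%, against 14.9% of all tested probe sets) and 6 lower (7.14%, against 16.4%). The members that kept their call in every alternative fit were Mrps33, Timm8b, Tomm70a 95432_f_at and Mrpl38. The week 5 shift was present in each condition: medians against week 1 were 0.15, 0.21, 0.26 and 0.19 for ribosomal proteins and 0.31, 0.10, 0.39 and 0.56 for import genes in diabetic trained, diabetic sedentary, healthy trained and healthy sedentary hearts, where those of all tested probe sets were -0.15, -0.022, -0.091 and -0.072. At week 3 against week 1 no member passed (0 of 84, 5 at an unadjusted p under 0.05, 0% of all tested called, 530 of 7453 unadjusted). The medians were -0.053 and -0.029, and 0.043 and 0.094 without the diabetic trained array of week 3. Mrpl11, a protein at the base of the stalk, read 38.8, 57.6 and 51.0 in diabetic trained hearts at weeks 1, 3 and 5, 38.2, 52.1 and 47.7 in diabetic sedentary hearts, 37.6, 49.3 and 46.5 in healthy trained hearts and 38.2, 56.0 and 51.3 in healthy sedentary hearts. It was higher at week 3 than at week 1 in all 4 conditions, with 0.49 (SE 0.15, adjusted p = 0.622), and Mrpl50 96861_at had 0.57, while Mrpl45 95556_at (-0.41) and Tomm34 (-0.54) stood on the negative side.

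Promoters of 2 import genes that rose at week 5 are shown because both hold CCGGAAG close to the start, as did 5 of the 12 matched member genes that rose at week 5 (41.7%), 19 of the 70 members matched in all (27.1%) and 9.12% of protein-coding genes. The windows are the 250 bases upstream of the start in RefSeq (GRCm38.p6), chr9:50603651-50603900 (+ strand) and chr16:57121464-57121713 (+ strand), with the motif in capitals on either strand. It begins 12 bases before the start of Timm8b and 80 and 8 bases before that of Tomm70a.
Timm8b: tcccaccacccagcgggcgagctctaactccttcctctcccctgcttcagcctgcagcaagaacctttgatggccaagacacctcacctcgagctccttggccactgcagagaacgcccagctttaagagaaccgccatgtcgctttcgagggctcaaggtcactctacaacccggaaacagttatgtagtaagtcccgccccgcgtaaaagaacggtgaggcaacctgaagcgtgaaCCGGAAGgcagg
Tomm70a: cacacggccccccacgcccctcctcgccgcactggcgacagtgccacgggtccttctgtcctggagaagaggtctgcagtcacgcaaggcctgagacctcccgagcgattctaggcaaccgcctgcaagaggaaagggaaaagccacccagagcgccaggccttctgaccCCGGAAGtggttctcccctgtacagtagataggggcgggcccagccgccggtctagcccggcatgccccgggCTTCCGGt

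Probe sets of the same gene did not always have the same sign. Of the 8 genes with more than 1 tested probe set, Mrpl18, Mrpl48, Mrpl50, Mrps18a, Timm10b and Tomm70a differed in sign in at least 1 of the 3 main comparisons. Mrps18a, with 4 probe sets, had 0.53 with 94327_at and 0.11 with 104767_f_at at week 5, but -0.74 and -0.59 with its _r probe sets (adjusted p = 0.0674 and 0.125). Those 2 probe sets read 340.5 and 218.2 on the diabetic trained array of week 3, above all other arrays, where 94327_at read 146.0. Mrpl18 read 491.1, 617.0 and 677.5 in diabetic hearts (lowest, median and highest of 6 arrays), against 673.9, 729.0 and 759.3 in healthy hearts with 93787_f_at, and both of its probe sets had similar diabetes differences (-0.26 and -0.24). Timm10b, of the inner membrane translocase for carriers, had 0.41 and -0.24 at week 5. Its second probe set had the lowest geometric mean signal of the tested members, 14.3, with a range of 8.8 to 36.1. Mrpl48 had diabetes differences of -0.12 and 0.085 with 162013_f_at and 96059_at (adjusted p = 0.716 and 0.878).

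Genes that work with the members under other symbols were read from lists of known function. For diabetes and for training, over both states, 0 of 55 tested genes in 6 lists passed. Of all tested probe sets 0.765% passed for diabetes and 0% for training. The values that follow come from the fit on all 12 arrays. Import genes under other symbols had a diabetes median of -0.075 (13 genes), led by Mtch1 (outer membrane) with -0.37 (adjusted p = 0.173) and Dnajc11 (contact sites of the 2 membranes) with -0.92 (adjusted p = 0.159). Translation and assembly factors had -0.21 (10 genes), with the elongation factor Gfm1 at -0.36 and the initiation factor Mtif2 at -0.35. Processing, folding and quality control had -0.15 (11 genes), with the chaperonin Hspe1 at -0.44 (adjusted p = 0.194) and Pmpcb, a subunit of the presequence peptidase, at -0.32. The 7 aminoacyl-tRNA synthetases had -0.054, with Tars2 at -0.43, and the 12 genes of mitochondrial biogenesis and DNA expression 0.036, with Ppara at -0.41, Polg2 at 0.38 and the mitochondrial RNA polymerase Polrmt at -0.28. Ribosomal proteins under other symbols were 2, Ptcd3 at -0.28 and Dap3 at 0.025.

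At week 5 against week 1 members of all 6 lists passed the threshold, where 15.4% of all tested probe sets did (8.47% higher, 6.90% lower). Of the import genes under other symbols 5 of 13 rose (median 0.40): Dnajc15 (1.12), Dnajc11 (1.53), Mtx2 (0.83), Grpel1 (0.59) and Gfer (0.50). Grpel1 serves the import motor, and Gfer acts in the pathway that oxidises small Timm proteins. Of the quality control genes 4 of 11 rose, Pmpcb (1.30), Immp1l (1.00), Hspe1 (0.75) and Dnaja3 (0.73), while the proteases Afg3l1 (-0.68) and Htra2 (-0.76) fell. Among the translation factors Mterf3 (1.57) and Slirp (1.01) rose, 2 of 10, and among the synthetases Rars2 rose (0.76) and Sars2 fell (-0.69). Biogenesis genes went both ways, with Gabpa (1.29, a factor that binds ETS motifs) and Ssbp1 (0.93) higher and Sp1 (-1.04), Ppara (-0.87) and Esrra (-0.42) lower, 5 of 12. Ptcd3 rose by 0.54. The chip lot and run day of week 5 apply to these as to the members.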

How the data were processed

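RNA from cardiac muscle was hybridised to 12 Affymetrix MG_U74Av2 arrays, each with 1 pool of 5 mice. The deposited values are intensity values, MAS5 signals computed by the authors as the submitters' processing notes name it. Which MAS5 version and scaling target they used is not given in the sources used here. MAS5 corrects background itself. Signals were floored at 4.1 (the 20th percentile of all values) and converted to log2, a step made here and not part of the deposited values. The experiment files deposited by the authors hold no expression value and gave other fields only. These were chip lot, fluidics module, scan date (the run day) and whether a comment was present. Gene symbols came from the platform annotation, updated through RefSeq.

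Of 12488 probe sets 66 controls were set aside, and 7453 of the other 12422 passed a filter on mean log2 signal (40th percentile, a geometric mean of 11.6). A model of condition and week (6 residual degrees of freedom) was fitted with limma 3.58.1 (R 4.3.3) with an intensity trend, and p-values were Benjamini-Hochberg adjusted over all 7453, with a threshold of 0.05. No array was dropped or imputed in it. Fits were tested on simulated data. Precision is limited by the number of arrays.

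The replicate number is the week, and week was kept as a block: deviations of same-week arrays correlated at 0.0797 to 0.64 (median 0.272, 18 pairs), against -0.452 to 0.246 (median -0.214, 36 pairs) for different weeks. Alternative fits used other scalings, floors, filters, array weights, blocks, no intensity trend, and each array or week left out. The members and lists were chosen with earlier results of these data known. Values on each array were printed for Mrpl45, Tomm34, probe sets past the threshold, and those of smallest p or highest signal, as far as their values add to the comparison; others were summarised.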

Additional observations from a re-analysis of the deposited data

Results flagged for a closer look

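For the 49 tested probe sets named in the results and the 2 class medians, 357 groups (the 4 arrays of a week, or the 6 of diabetic, healthy, trained or sedentary hearts) were examined for a single array far from the rest by Dixon's ratio, and 30 (8.4%) had one. Chance gives about 5% in independent groups of unselected probe sets. That rate is no yardstick here, because some probe sets were named after their values were seen and the groups share arrays. Of the 30, 18 were on the diabetic trained array of week 3. On it Mrpl9 read 4.3 (nearest others 34.1 among week 3 arrays, 31.9 among diabetic and 29.1 among trained hearts), Mrps21 read 208.0 (nearest 361.9 among diabetic and among trained hearts), Mrpl51 read 269.4 (nearest 419.8 at week 3), Mrpl54 read 7.2 (nearest 16.0 at week 3) and Mrpl50 160381_at read 8.6 (nearest 27.8 among trained hearts). Mrpl40 read 12.4 there (nearest 51.7 at week 3, 43.3 among diabetic and 44.8 among trained hearts), Mrps12 read 12.0 (nearest 50.4 among diabetic and 54.6 among trained hearts) and Mrps25 102128_f_at read 61.1 (nearest 89.1 at week 3). In the other direction Mrps25 104234_at read 70.4 (nearest 49.0 among diabetic hearts), Mrps26 read 79.5 (nearest 45.8 among diabetic hearts) and Timm10b 99124_at read 36.1 (nearest 14.7 among diabetic and 14.4 among trained hearts).

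The other 12 lay on several arrays. The diabetic sedentary array of week 1 was lowest of its week for Mrpl45 100886_f_at (79.6, nearest 101.1), Mrpl12 (186.6, nearest 242.7) and Mrps7 (55.7, nearest 67.7). The diabetic trained arrays gave Tomm7 at 818.6 (nearest 578.9) and Mrpl4 at 179.7 (nearest 233.5) at week 5, Mrps22 at 9.5 at week 1 (nearest 13.6) and Mrpl48 162013_f_at at 113.5 at week 1 (nearest 105.9 among trained hearts). Healthy trained arrays gave Mrps25 104234_at at 60.3 at week 5 (nearest 49.0), Mrpl50 96861_at at 15.8 at week 1 (nearest 25.7) and Mrps7 at 55.9 at week 3 (nearest 67.7 among healthy hearts). Healthy sedentary arrays gave Mrpl48 162013_f_at at 136.3 at week 1 (nearest 111.4 among healthy hearts) and Timm10b 99124_at at 20.6 at week 3 (nearest 15.1 among healthy hearts).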

How the results depend on the processing

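The number of members past the threshold for diabetes over both training states was 1 with all settings as given and 0 with arrays centred on their medians, quantile normalization, no filter on dim probe sets, no replicate block, no trend, or without week 1, week 3 or week 5; with single arrays left out it ranged from 0 to 1. In sedentary hearts the number was 0, and 1 with array weights, with run day as the block, and at most with 1 array left out (0 to 1, the 1 without the diabetic trained array of week 3). At week 5 the 17 members became 11 without the filter and 35 with array weights, and 4 to 33 with single arrays left out: 4 without the diabetic trained or healthy trained array of week 5 or the healthy trained one of week 1, 6 without the healthy sedentary array of week 5 or the diabetic sedentary one of week 1, 8 without the diabetic trained array of week 1, 10 without the healthy sedentary array of week 1, and 33 without the diabetic trained array of week 3. Where an array was left out, fewer samples entered the fit; otherwise the cause was not tested. Over all tested probe sets the 57 calls for diabetes ranged from 0 (without week 5) to 192, with 10 without the block, and the 1145 at week 5 from 272 to 2683. No member or median reversed a called direction. The medians for diabetes and training moved by less than the spread of the week-matched medians (SD 0.19 to 0.24, 6 pairs), also without the block (-0.15 and -0.072 for diabetes, -0.011 and 0.0031 for training). That spread includes the diabetic trained array of week 3, whose ribosomal and import medians were -0.55 and -0.50 for diabetes and -0.35 and -0.43 for training. It is therefore no yardstick for the fit without that array. There the training medians moved from -0.011 and 0.0031 to 0.081 and 0.10. The import median for diabetes was above 0 with array weights (0.00031) and without week 3 (0.0047). With single arrays left out, the ribosomal median for diabetes was -0.20 to -0.11 and the import median -0.15 to -0.016, and those for training were -0.033 to 0.081 and -0.029 to 0.10. Signals near 13.8, the highest of the unspiked controls, limit what can be read from Mrps22, Mrpl54 and Timm10b 99124_at at their lowest arrays. Background correction could not be varied.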

Other observations

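Respiratory chain subunits encoded in the nucleus had a median difference of 0.11 (log2, week 5 minus week 1) over 75 probe sets, of which 10 rose and 2 fell. The ribosomal and import members had 0.20 and 0.33. The mitochondrially encoded subunits, which the mitochondrial ribosome makes, were not among these 75. On 26 of those 75 every week 5 array was above every week 1 array (34.7%), against 36.9% of the members and 14.9% of all tested probe sets. Among cytoplasmic ribosomal proteins it was 6 of 35 (17.1%).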
